A study of Homo sapiens with 24 samples.

Results

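DNMT1-AID cells were compared at day 4 and day 0 of auxin treatment, across all genes of the count tables. The members were the 6 libraries that the labels assign to this line, 3 per day, of 24 libraries in the series. HCT116 is a human colorectal carcinoma line. The derivative used here carries OsTIR1, the plant F-box protein that recognises auxin, under a doxycycline-inducible promoter. DNMT1-AID cells also carry a knock-in that fuses a mini auxin-inducible degron (mAID) and the red fluorescent protein mRuby2 to the N-terminus of endogenous DNMT1. Cells received 2 µg/mL doxycycline with 20 µM auxinole, an OsTIR1 inhibitor, for 1 day, and then 2 µg/mL doxycycline with 500 µM auxin until day 4. The labels call day 0 "before auxin" and do not say whether those cells had already been given doxycycline and auxinole. According to the methods each AID line is represented by 3 clones, but no label ties a replicate number to a clone, so p-values measure the spread between libraries, which may be clonal or technical. WT cells, which express OsTIR1 and have no degron, are represented by 3 libraries at each of the same days of treatment. So are UHRF1-AID cells, with the tag on the C-terminus of UHRF1.

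DNMT1 copies CpG methylation onto the daughter strand after replication. UHRF1 binds hemimethylated CpG and brings DNMT1 to it. In dividing cells that lack this activity, methylation is diluted with each round of replication, and genes whose promoters are kept silent by methylation, classically the germline-restricted cancer/testis genes, can become transcribed. The degron acts on the protein, so the transcript of DNMT1 is no measure of its depletion.

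The day 0 libraries held between 20609617 and 21952477 counts on genes and the day 4 libraries between 15824804 and 16987046. All day 0 libraries were aligned in 1 folder, per the file headers, whereas those of DNMT1-AID and WT cells at day 4 came from another, so day and alignment folder cannot be told apart in these lines. Both UHRF1-AID groups came from the first folder. Day 0 replicate 3 differed from the other day 0 libraries of DNMT1-AID cells. Its deviation from them rose with exon length (Spearman correlation 0.27 across 13850 genes) and with GC content (0.236). Log2 fold changes between the days also correlated with GC content across genes (Spearman correlation 0.231). In WT cells day 0 replicate 3 stood apart the opposite way, with a deviation that fell with exon length (Spearman correlation -0.394). Of 10 colon epithelial markers 6 were tested. The summed level of all 10 was between 5484 and 6095 CPM at day 0 and between 7257 and 8248 CPM at day 4. CPM are counts scaled to a common library size. CEACAM5 had no count in these 6 libraries. Immune markers summed to at most 1.25 CPM, endothelial markers to at most 1.77 CPM and fibroblast markers to at most 14.1 CPM in any library.

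Between the days, 1194 of 13850 tested genes were higher at day 4 (8.62%) and 925 were lower (6.68%), with calls by edgeR's quasi-likelihood test needing a change of more than 1 on the log2 scale and a Benjamini-Hochberg adjusted p below 0.05. Without a minimum fold change, 2704 genes (19.5%) were higher and 2886 (20.8%) lower. The higher genes contained 53 of the 56 tested interferon-stimulated genes and 17 cancer/testis genes, and the lower genes contained many that act in DNA replication and mitosis. The median log2 fold change of all tested genes was -0.01. Protein-coding genes were called higher in 8.95% and lower in 5.82% of cases, and long noncoding RNA genes in 6.67% and 14%. Without day 0 replicate 3 the count of higher genes was 1682 and that of lower genes 938.

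**Figure D1:**
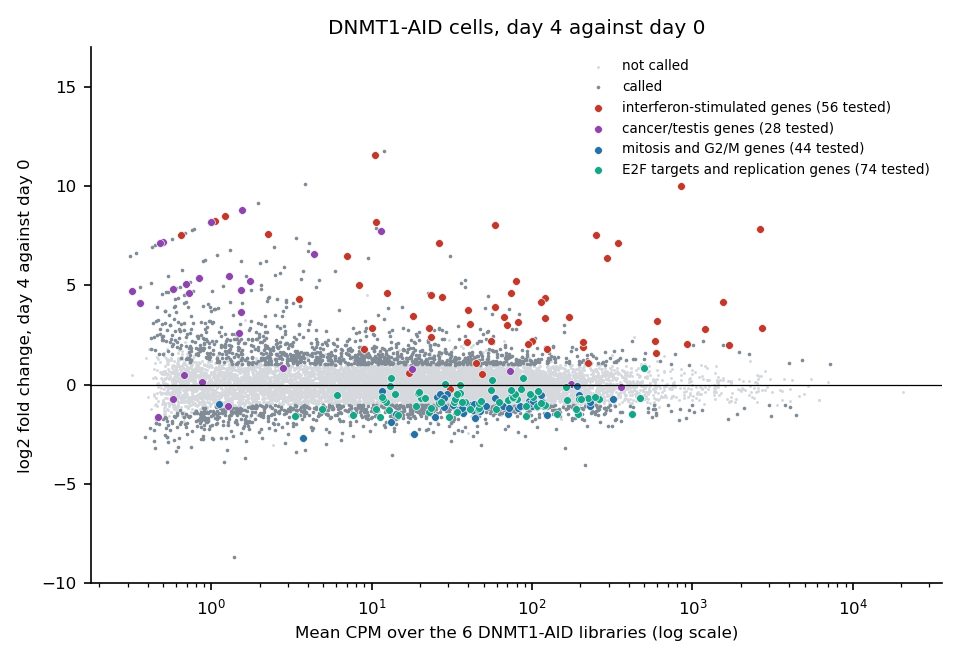
Log2 fold change at day 4 against day 0 in DNMT1-AID cells (y axis) by mean CPM over the 6 libraries (x axis, log scale), 1 point per tested gene. Nearly all interferon-stimulated genes (red) lie above 0 across the whole range of levels, called cancer/testis genes (purple) are at low levels, and most E2F target and mitosis genes (green and blue) lie below 0.

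The transcript of DNMT1 itself (ENSG00000130816, chromosome 19, 10133345 to 10231286, hg38) was at 28.9, 30.9 and 73.8 CPM in the day 0 libraries and at 16.7, 13.2 and 16.4 CPM at day 4. Replicate 3 was well above the others at day 0, and the groups did not overlap. It fell by 1.53 on the log2 scale with a standard error of 0.39 and passed edgeR's quasi-likelihood test (adjusted p = 0.0217). The call was lost in 4 of the 6 fits that left out a library: the log2 fold change was -0.96 without day 0 replicate 3, and the adjusted p rose to 0.067, 0.0887 and 0.0662 without day 4 replicate 1, 2 or 3 (same edgeR test). WT cells, with no degron, had DNMT1 at 143 ± 57.4 CPM at day 0 and 31.5 ± 12.7 CPM at day 4 (SD, n = 3 each), a log2 fold change of -2.20. The difference of the 2 day effects was 0.67 (standard error 0.65), with an adjusted p of 0.659 in the edgeR interaction term.

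Of the 32 tested members of a list of DNA methylation machinery genes, 8 were lower and 1 was higher, against 6.68% and 8.62% of all tested genes, and the median of the list was -0.43. Among the 11 maintenance genes 5 were lower and the median was -0.90. Besides DNMT1 these were LIG1, the ligase that joins Okazaki fragments and binds UHRF1 (-1.13), PCLAF, a PCNA-associated factor (-1.17), the chromatin remodeler HELLS (-1.35) and its partner CDCA7 (-1.73). CDCA7 was at 108, 95.8 and 72.8 CPM at day 0 and at 28.5, 29 and 26.1 CPM at day 4. UHRF1 was at 51.6, 47.6 and 107 CPM at day 0 and at 40.1, 37.6 and 33.3 CPM at day 4. The groups did not overlap, yet the log2 fold change of -0.90 did not pass edgeR's quasi-likelihood test (standard error 0.32, adjusted p = 0.0658). It passed at -1.07 without day 0 replicate 1 (adjusted p = 0.048) and at -1.11 without day 0 replicate 2 (adjusted p = 0.0276).

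None of the 2 tested de novo methyltransferases and of the 4 demethylation genes was called. DNMT3A was at 0.83 on the log2 scale (standard error 0.45) and DNMT3B at -0.34 (standard error 0.19). At day 0 DNMT3A was at 2.17 and 2.16 CPM in replicates 1 and 2 and at 7.14 CPM in replicate 3, which is within the day 4 range of 6.37 to 7.21 CPM. Without day 0 replicate 3 its change was 1.65, with an adjusted p of 6.7e-05 in edgeR's test. TET1, TET2 and TET3, which oxidise methylcytosine, had log2 fold changes of -1.10, -0.27 and 0.38, each with overlapping groups. That of TET3 was 1.40 without day 0 replicate 3 (adjusted p = 0.000445 in edgeR's test). Of the genes of methyl donor supply AHCY (-1.44) and SHMT2 (-1.37) were among the lower. The 1 higher gene was ZBTB4, a zinc finger protein that binds methylated DNA, with a log2 fold change of 1.07, and 0.92 or 0.99 without day 0 replicate 1 or 2. Without day 0 replicate 3 the number of higher genes was 3. In WT cells 6 of 32 machinery genes were lower, against 6.53% of all tested genes, and in UHRF1-AID cells 11 of 32 were, against 9.82%. The edgeR interaction term, which tests whether the day effect differs between DNMT1-AID and WT cells, called 0 members, and 3 had an unadjusted p under 0.05.

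Of the 123 cancer/testis genes in the list, 28 passed the filter on low counts in DNMT1-AID cells and 17 of these were higher, against 8.62% of all tested genes. A silent gene passes that filter only through its day 4 counts, so this share is not one of all members. Another 49 members had no count in the 6 libraries. The higher genes were 14 of 19 tested X-linked antigens and 3 of 9 tested autosomal germline genes. Lower members numbered 2 without day 0 replicate 3 or without day 4 replicate 2, and 1 without day 4 replicate 3. MAGEA4, a member of the MAGE family of testis antigens and ubiquitin ligase cofactors, was at 0.0517, 0.251 and 0 CPM at day 0 and at 21.7, 29.5 and 17 CPM at day 4 (adjusted p = 2.06e-05 by edgeR's quasi-likelihood test). MAGEA8 had 0 counts in the day 0 libraries and 46, 54 and 50 counts at day 4. This is at least 62.1-fold higher, taking 3 counts over the day 0 group as the floor. In WT cells MAGEA8 had counts in 1 day 0 library (0.102 CPM) and in no day 4 library.

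MAGEB1, on the same chromosome, rose from at most 0.151 CPM to between 3.05 and 3.7 CPM. TKTL1, a transketolase-like gene counted among the germline genes, was at 0.259, 0 and 0 CPM at day 0 and at 8.52, 9.74 and 7.54 CPM at day 4. CTCFL, the germline paralog of CTCF, rose from at most 0.103 CPM to between 1.25 and 1.85 CPM, a ratio of counts of 49.1 (95% exact interval 13.1 to 412). MAEL, a gene of the piRNA pathway, went from 0 counts to between 0.774 and 1.12 CPM, at least 19.9-fold higher. Other members were already expressed at day 0 and were not called. MAGEA3 was at 206, 164 and 148 CPM at day 0 and at 168, 166 and 193 CPM at day 4, and MAGEB2 was between 309 and 410 CPM at day 0 and between 335 and 359 CPM at day 4. PRAME (0.70 on the log2 scale, standard error 0.12) and CSAG3 (0.78, standard error 0.20) were higher in each day 4 library than at day 0 but under the minimum fold. Neighbouring MAGEA copies are near-identical, and how reads shared between them were counted is not stated, so values of single copies such as MAGEA9 and MAGEA9B are uncertain.

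In WT cells edgeR called 0 of 11 tested cancer/testis genes higher, and 3 had an unadjusted p under 0.05 in that direction. In UHRF1-AID cells 32 of 44 tested members were higher, against 12.1% of all tested genes. MAGEA4 had a log2 fold change of 15.61 there, against 7.73 in DNMT1-AID cells. Both values are fitted from day 0 levels near 0, and their difference was not tested. The median log2 fold change of the 28 members tested in DNMT1-AID cells was 4.35 (4.17 with genes at 0 set to their bound). It covers the members that passed the filter, and other members were tested in the other lines, so medians are not compared between lines.

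Of all genes called higher, 85 had at most 3 counts in each day 0 library of DNMT1-AID cells. This group was picked by its counts and is given as a description. It comprised 6 interferon-stimulated and 12 cancer/testis genes and 67 others, and 83 were protein coding. The X chromosome carried 13 of them (15.3%), among them MAGEA8 and MAGEB1 of the cancer/testis list above. It carries 3.24% of the tested genes, but these include genes expressed at day 0, so this is not the share among silent genes. In WT cells 10 of the 85 were called higher and the other 75 did not pass the filter, which genes silent at day 0 pass only through their day 4 counts. Of the 85, 49 had at most 3 counts in every WT day 4 library. In UHRF1-AID cells 76 of the 85 were called higher.

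The highest in level at day 4 was TMPRSS11E, an epithelial transmembrane serine protease, with 0 counts at day 0 and 36.9, 14.4 and 20.4 CPM at day 4. It is at least 483-fold higher. TMPRSS11E also rose in WT cells, to between 28.4 and 29.3 CPM. IL23R, the receptor of interleukin 23, went from 0 counts to 9.47, 6.21 and 7.41 CPM, and in WT cells from 0 to between 5.01 and 5.52 CPM. UCHL1, a neuronal deubiquitinase often methylated in colorectal cancer, behaved differently. It was at 0, 0 and 0.0483 CPM at day 0 and at 1.55, 2.62 and 3.64 CPM at day 4 in DNMT1-AID cells, and at 0 in all WT libraries. The ratio of its counts was 154 (95% exact interval 27.1 to 6134, counting error only).

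Promoter windows of MAGEA8, UCHL1 and TMPRSS11E are shown, and that of TNFRSF1B, which is outside this group with 7, 5 and 5 counts at day 0. The 4 windows differ in the dinucleotide that DNMT1 methylates. Each line gives the 250 bases upstream of the RefSeq start site (GRCh38.p14), 5′ to 3′ on the strand of the gene, with CpG in capitals. The windows are chrX:149880933-149881182 (MAGEA8), chr4:41256678-41256927 (UCHL1), chr1:12166741-12166990 (TNFRSF1B) and chr4:68447213-68447462 (TMPRSS11E), all on the plus strand.
MAGEA8: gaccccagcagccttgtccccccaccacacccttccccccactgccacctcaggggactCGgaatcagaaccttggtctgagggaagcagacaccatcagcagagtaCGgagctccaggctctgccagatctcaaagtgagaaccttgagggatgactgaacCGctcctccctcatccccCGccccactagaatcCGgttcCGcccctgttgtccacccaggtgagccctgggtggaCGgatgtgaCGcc
UCHL1: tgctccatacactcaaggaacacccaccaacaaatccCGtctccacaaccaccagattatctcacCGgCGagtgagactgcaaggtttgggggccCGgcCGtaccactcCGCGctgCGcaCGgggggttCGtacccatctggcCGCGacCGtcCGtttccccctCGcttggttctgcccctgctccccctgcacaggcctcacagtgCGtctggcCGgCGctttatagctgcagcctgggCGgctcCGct
TNFRSF1B: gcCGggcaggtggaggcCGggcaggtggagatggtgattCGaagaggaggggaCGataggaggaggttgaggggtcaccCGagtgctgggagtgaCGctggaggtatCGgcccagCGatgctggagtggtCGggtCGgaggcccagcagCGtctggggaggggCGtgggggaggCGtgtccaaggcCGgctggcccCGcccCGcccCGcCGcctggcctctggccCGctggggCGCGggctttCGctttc
TMPRSS11E: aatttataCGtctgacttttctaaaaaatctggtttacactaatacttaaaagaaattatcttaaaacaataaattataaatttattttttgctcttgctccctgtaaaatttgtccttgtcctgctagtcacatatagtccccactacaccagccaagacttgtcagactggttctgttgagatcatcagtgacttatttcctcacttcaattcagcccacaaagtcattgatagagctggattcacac

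The printed stretches hold 8 CpG in MAGEA8, 20 in UCHL1, 22 in TNFRSF1B and 1 in TMPRSS11E. TNFRSF1B, which encodes TNF receptor 2, was at 0.362, 0.251 and 0.241 CPM at day 0 and at 6.49, 4.75 and 5.49 CPM at day 4 in DNMT1-AID cells. In WT cells it was at 0.244, 0.562 and 0.616 CPM at day 0 and at 0.193, 0.182 and 0.0617 CPM at day 4. By their CPM, MAGEA8, UCHL1 and TNFRSF1B thus rose in DNMT1-AID and not in WT cells, while TMPRSS11E rose in both. The edgeR interaction term called a difference between the lines only for TNFRSF1B. In that term the adjusted p was 0.146 for MAGEA8 and 0.461 for TMPRSS11E. For UCHL1, with no count in WT cells, the standard error (12482.84) was far above the difference (6.79). These are 4 chosen genes, each of which was also called higher at day 4 in UHRF1-AID cells.

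Over all genes with a promoter window of 300 bases (250 before to 50 after the start), the median number of CpG was 26.5 for the 10522 tested genes that matched, 22 for the 832 called higher and 25 for the 650 called lower. Of the genes with at most 3 counts in every day 0 library 59 matched, with a median of 9 CpG. The 8 of them called higher in WT had a median of 3.5 and the other 51 a median of 10. The 15 matched cancer/testis genes called higher had a median of 16. Windows with at most 5 CpG made up 6.16% of the tested and 14.4% of the higher genes. They made up 35.6% of the genes with at most 3 counts in every day 0 library. All 27305 promoter windows of the reference had a median of 14 CpG, and 34.4% held at most 5. The share of such windows among the genes with at most 3 counts was thus near that of all promoters.

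Most of the tested interferon-stimulated genes were higher at day 4. Of 56 tested members 53 were higher, against 8.62% of all tested genes, and the median was 3.42 on the log2 scale. They are the transcriptional output of interferon signalling, which acts through a promoter element with repeated GAAA. All 32 tested antiviral effectors were higher, with a median of 4.46. Of the 53 higher members, 6 had at most 3 counts in every day 0 library. These 6 passed the filter only through their day 4 counts and could not have been called lower. IFI6, an interferon-induced mitochondrial and endoplasmic reticulum protein, was at 25, 26.3 and 18.6 CPM at day 0 and at 6361, 4174 and 5325 CPM at day 4. Its rise of 7.82 on the log2 scale (standard error 0.24) had the smallest p among the higher genes in edgeR's quasi-likelihood test (adjusted p = 4.76e-08). IFI27 went from between 1.36 and 1.81 CPM to 1820, 1096 and 2163 CPM, a log2 fold change of 10.02. ISG15, a ubiquitin-like modifier, was at 189, 137 and 159 CPM at day 0 and at 3215, 2515 and 3028 CPM at day 4.

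OAS1 and OAS2 make 2'-5'-oligoadenylates that activate RNase L. OAS1 rose from between 0.351 and 0.483 CPM to between 85.1 and 144 CPM. OAS2 had 0 counts at day 0 and 30.2, 14.6 and 18.4 CPM at day 4, at least 425-fold higher. RSAD2, which encodes viperin, was at 0, 0.1 and 0.0965 CPM at day 0 and at 40.6, 7.73 and 15.8 CPM at day 4. Day 4 replicate 1 had the highest value of the day 4 libraries in 50 of the 53 called genes, and replicate 2 the lowest in 46, so the day 4 libraries differed in the level of the response. The same day 4 replicate 1 was highest in 1 of the 17 called cancer/testis genes.

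Of the 12 tested sensors and signalling genes 9 were higher. RIGI and IFIH1, the cytosolic sensors of double-stranded RNA, had log2 fold changes of 3.43 and 3.06. IRF7, a transcription factor of the interferon response, was at 4.76, 6.13 and 6.08 CPM at day 0 and at 168, 122 and 136 CPM at day 4 (log2 fold change 4.64). The adaptor MAVS (0.56, standard error 0.41) and STING1 (-0.22, standard error 0.16) overlapped between the days and were not called, and IRF1 was under the minimum fold at 0.58 (adjusted p = 0.0255 by edgeR's quasi-likelihood test).

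Interferon genes themselves were near the limit of detection and were not tested. IFNL3 had 0 counts at day 0 and 23, 7 and 8 counts at day 4, at least 15.7-fold higher. IFNL1 had 0, 0 and 2 counts at day 0 and 15, 10 and 6 at day 4, a ratio of 19.3 (95% exact interval 4.9 to 166). IFNB1 had 0 counts at day 0 and 4 counts over the day 4 group. IFNL2 had 0 counts at day 0 and 6, 6 and 3 counts at day 4. It is a near copy of IFNL3, so the split between IFNL2 and IFNL3 is uncertain.

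All 12 antigen presentation genes were higher, with a median of 2.17. B2M, the light chain of MHC class I, was at 703, 719 and 535 CPM at day 0 and at 5377, 4199 and 4858 CPM at day 4. The heavy chains HLA-B and HLA-C had log2 fold changes of 2.19 and 1.98, and the peptide transporter genes TAP1 and TAP2 of 2.16 and 1.11. PSMB8, an immunoproteasome subunit, rose from between 0.452 and 0.569 CPM to 16.8, 15.2 and 16.7 CPM.

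Promoter stretches of 4 of these genes are shown because they hold the interferon response element, here searched as GAAA, any 2 bases and GAAA again, on either strand. Matches are in capitals, and overlapping matches run together. Positions are chr1:27672261-27672363 on the minus strand (IFI6), chr1:1013369-1013414 (ISG15), chr14:94110613-94110665 (IFI27) and chr11:313985-314024 (IFITM1), all RefSeq GRCh38.p14, 5′ to 3′.
IFI6: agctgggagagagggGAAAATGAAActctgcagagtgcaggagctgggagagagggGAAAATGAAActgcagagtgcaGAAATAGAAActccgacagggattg
ISG15: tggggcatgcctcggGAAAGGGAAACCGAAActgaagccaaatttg
IFI27: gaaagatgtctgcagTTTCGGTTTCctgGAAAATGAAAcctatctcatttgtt
IFITM1: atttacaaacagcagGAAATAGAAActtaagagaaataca

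IFI6 shows 3 matches in its stretch, ISG15 and IFI27 show 2 each and IFITM1 shows 1. The element was in 26 of the 41 matched windows of interferon-stimulated genes called higher (63.4%), in 8.41% of the windows of all genes called higher, in 3.08% of those called lower and in 3.65% of the 27305 promoter windows of the reference.

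Interferon-stimulated genes also rose in WT cells, where 44 of 51 tested members were higher, against 5.37% of all tested genes, and the median was 2.10. In UHRF1-AID cells 52 of 57 were higher, against 12.1% of all tested genes, with a median of 3.78. The tested members differ between the lines, so these medians are not compared. IFI6 went from 20 ± 1.68 to 1388 ± 184 CPM in WT cells (SD, n = 3 each), a log2 fold change of 6.10. The difference of the day effects between DNMT1-AID and WT was 1.73 (standard error 0.25, adjusted p = 0.0121 in the edgeR interaction term), with all DNMT1-AID libraries at day 4 above all WT libraries. ISG15 had a difference of 0.60 (standard error 0.25), which did not pass the test. The median difference over the 56 members tested was 1.09, against -0.01 over all 14370 genes.

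**Figure D2:**
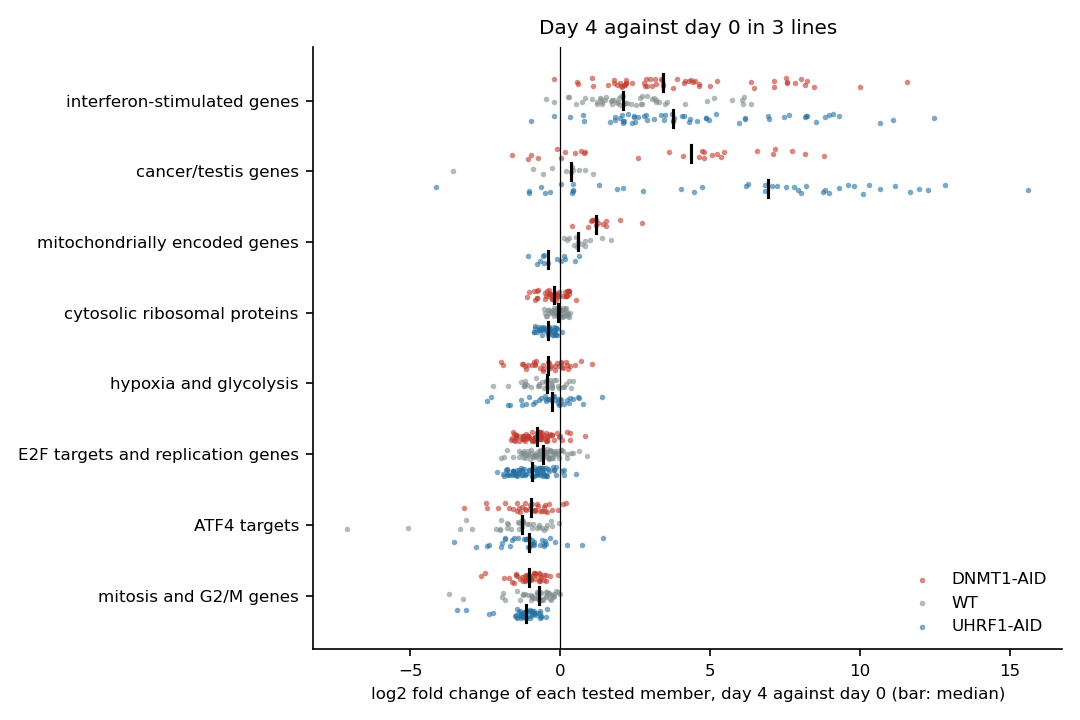
Log2 fold change at day 4 against day 0 of each tested member of 8 gene lists (x axis) in DNMT1-AID (red), WT (grey) and UHRF1-AID cells (blue), with the median as a black bar. Interferon-stimulated genes had medians of 3.42, 2.10 and 3.78 in the 3 lines, and the medians of mitosis genes were -1.04, -0.72 and -1.13. The members that passed the filter differ between the lines in the interferon list (56, 51 and 57) and the cancer/testis list (28, 11 and 44). The medians of these lists cannot be compared between lines.

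The interaction term asked which genes responded differently in DNMT1-AID and WT cells. Of 14370 genes tested, 19 had a higher day effect in DNMT1-AID cells (0.132%) and 1 a lower one (0.00696%), while 1829 (12.7%) had an unadjusted p under 0.05. Without a minimum fold change the numbers were 20 (0.139%) and 2 (0.0139%). Of the 19 genes, 16 were also called higher within DNMT1-AID cells, and 9 were in the interferon list: IFI6, IFI27, IFITM1, IFITM2, OASL, EPSTI1, IRF7, PSMB8 and PSMB9. IFI27 reached between 1096 and 2163 CPM at day 4 in DNMT1-AID cells and between 41.5 and 60 CPM in WT, a difference of 3.64 (standard error 0.51). IFITM1, a restriction factor at the cell surface, reached between 291 and 700 CPM against between 34.4 and 40.3 CPM, a difference of 3.35 (standard error 0.42). PSMB8 differed by 3.26 (standard error 0.45), OASL by 1.71 (standard error 0.23) and BATF2, a transcription factor induced by interferon, by 1.85 (standard error 0.26).

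TNFRSF1B, described above, had the smallest p of the interaction. Its difference was 5.93 (standard error 0.64, adjusted p = 0.00315 in the edgeR interaction term), with groups that did not overlap between the days in DNMT1-AID cells. APOL6, an apolipoprotein L gene, rose from between 0.207 and 0.338 CPM to between 5.79 and 10.5 CPM and had a log2 fold change of 0.30 in WT cells. PRF1, which encodes perforin, and ATF5 had fold changes of opposite sign in the 2 lines. PRF1 was at 22.6, 31.4 and 30 CPM at day 0 and at 44.8, 50.8 and 64.5 CPM at day 4 in DNMT1-AID cells, a log2 fold change of 0.92 that is under the minimum fold, and had -1.42 in WT. ATF5 had 0.76 in DNMT1-AID and -0.74 in WT cells. In UHRF1-AID cells TNFRSF1B, APOL6, PRF1 and ATF5 rose too, with log2 fold changes of 6.36, 5.85, 3.47 and 1.86. IFI27, IFITM1 and PSMB8 had 10.68, 8.18 and 5.95 there, so these rises were not particular to DNMT1-AID cells. PRF1, ATF5, APOL6, IFI27, IFITM2, EPSTI1 and PSMB9 were chosen here after their values were seen. FBXO27, an F-box protein gene, was the only lower call, with a difference of -1.15 (standard error 0.20, adjusted p = 0.0437 in the edgeR interaction term).

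The number of such calls depended on single libraries. It was 2 higher without WT day 0 replicate 2 and 6 without WT day 4 replicate 2, and 86 higher and 24 lower without WT day 0 replicate 3. It was 12 higher without DNMT1-AID day 4 replicate 3, WT day 0 replicate 1 or WT day 4 replicate 1. Without WT day 0 replicate 2 the calls of OASL, PSMB8, IFITM1 and BATF2 were lost, with adjusted p of 0.0517, 0.0517, 0.0655 and 0.0571 in the edgeR interaction term, and that of BATF2 also without WT day 4 replicate 2 (0.0537). FBXO27 lost its call in 10 of the 12 fits that left out a library. Across genes, the differences of the day effects correlated with exon length (Spearman correlation 0.178) and with GC content (0.166).

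**Figure D3:**
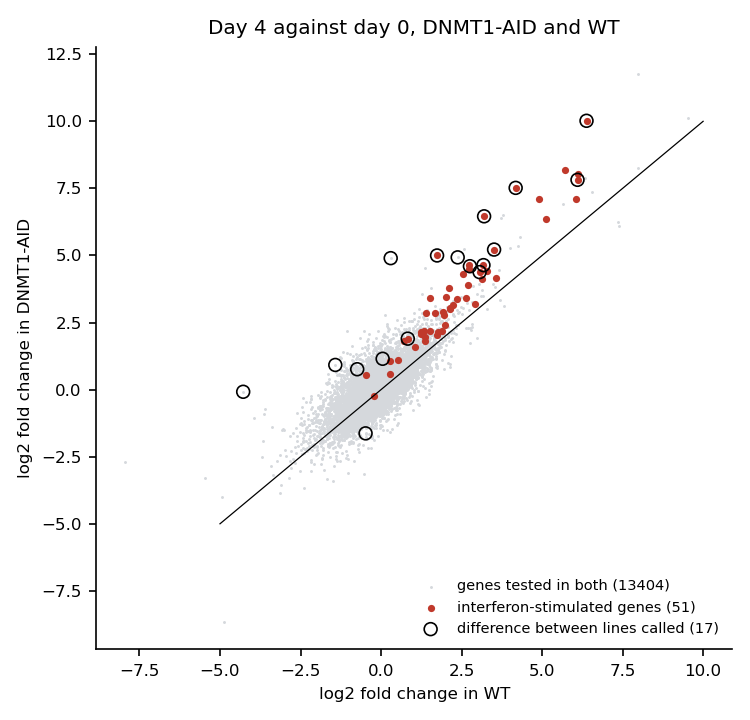
Log2 fold change at day 4 against day 0 in DNMT1-AID cells (y axis) and in WT cells (x axis) for the 13404 genes tested in both, with the diagonal of equal change. Of the 51 interferon-stimulated genes (red) most lie above the diagonal, and the 17 circled genes were called in the test of the difference.

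The DNMT1-AID and WT comparisons share no libraries, and 521 of the 1194 higher genes were also called higher in WT. This is 43.6% of the DNMT1-AID calls and 71.4% of the 730 WT calls, while 5.37% of all genes tested in WT were called higher. In both lines the alignment folder changed with the day, and how far this adds to the shared calls was not tested. For lower genes 463 were shared, 50.1% of the 925 in DNMT1-AID and 52.1% of the 888 in WT cells. Of all genes tested in WT 6.53% were called lower. The 1019 higher genes that were tested in WT had a median log2 fold change of 1.44 in DNMT1-AID and of 1.05 in WT cells. With UHRF1-AID cells, 827 higher genes (69.3% of those in DNMT1-AID, 47.6% of 1736) and 551 lower genes (59.6% and 39% of 1413) were shared. Of all genes tested in UHRF1-AID cells 12.1% were called higher and 9.82% lower.

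**Figure D4:**
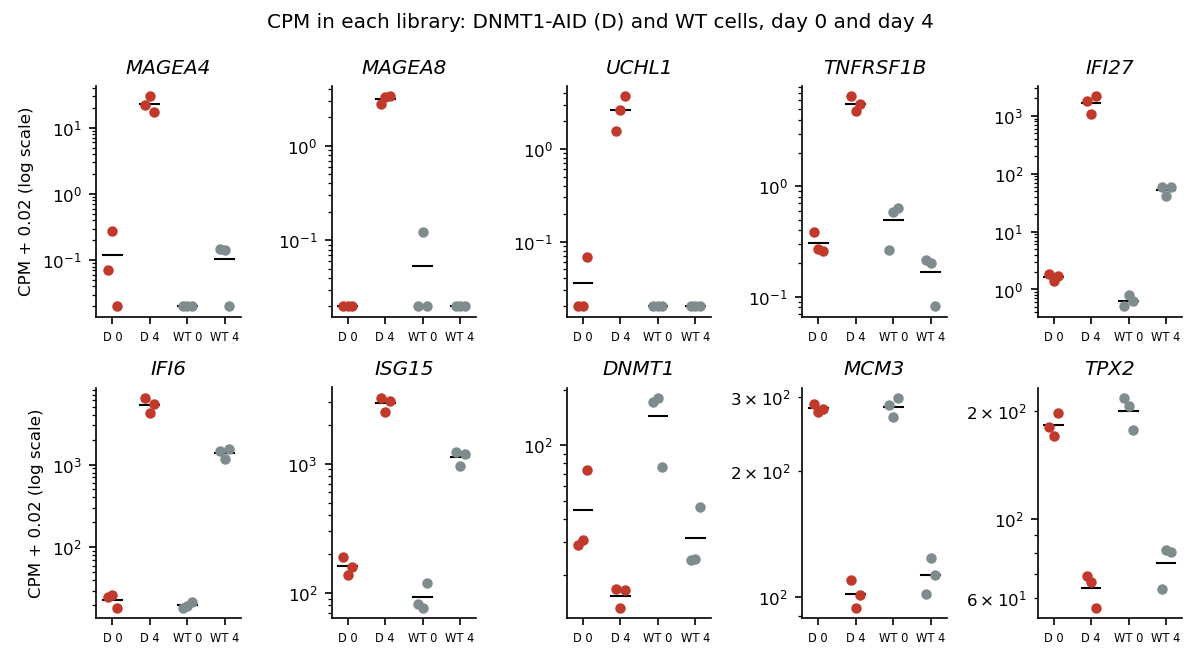
CPM + 0.02 (y axis, log scale) in each library of DNMT1-AID (red) and WT cells (grey) at day 0 and day 4, with the group mean as a line, for 10 genes. MAGEA8, UCHL1 and TNFRSF1B rise in DNMT1-AID and not in WT cells, and of these only TNFRSF1B was called in the interaction term. MAGEA4 reaches between 17 and 29.5 CPM in DNMT1-AID and at most 0.129 CPM in WT cells at day 4. IFI27, IFI6 and ISG15 rise in both lines, and DNMT1, MCM3 and TPX2 fall in both.

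Part of the proliferation genes were lower. Of 74 tested E2F targets and replication genes 26 were lower (median log2 fold change -0.78), against 6.68% of all tested genes called lower. MCM3, a subunit of the replicative helicase, was at 289, 277 and 282 CPM at day 0 and at 110, 94.3 and 101 CPM at day 4, a log2 fold change of -1.48 (standard error 0.11). MCM7 (-1.47), the ribonucleotide reductase subunit RRM1 (-1.46) and topoisomerase TOP2A (-1.56) fell by similar amounts. Of the 23 genes of the replication fork and clamp loader 7 were lower past the minimum fold and 21 without it.

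Of 44 mitosis and G2/M genes 23 were lower, against 6.68% of all tested genes, and the median was -1.04. In bulk RNA, fewer dividing cells and less RNA of these genes per cell cannot be told apart. Without day 4 replicate 3 the count was 14. TPX2, a spindle assembly factor, was at 181, 171 and 198 CPM at day 0 and at 69.1, 66.4 and 56.1 CPM at day 4. HMMR (-1.70), the chromokinesin KIF4A (-1.61) and DLGAP5 (-1.34), which act on spindle microtubules, were lower too. Kinesin, kinetochore and cytokinesis genes were called lower in 16 of 22 cases and cyclins and kinases in 7 of 22. The letters TTTGAA, the core of the cell cycle homology region, were in 67.6% of the 37 matched promoter windows of tested mitosis genes, in 16 of the 20 of those called lower (80%), in 17.8% of the windows of all lower genes, in 9.38% of those of all tested genes and in 15.4% of all windows. In WT cells 15 of 74 E2F targets and 10 of 44 mitosis genes were lower, against 6.53% of all tested genes. In UHRF1-AID cells 34 and 28 were, against 9.82%. The edgeR interaction term called 0 of either list, and 10 E2F targets and 14 mitosis genes had an unadjusted p under 0.05 toward a lower day effect in DNMT1-AID cells.

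Among the lower genes with the smallest p were 7 that stand in none of these lists. PAICS, an enzyme of purine synthesis, was at 475, 484 and 566 CPM at day 0 and at 120, 115 and 123 CPM at day 4 (log2 fold change -2.10, standard error 0.12). NAT10, an RNA cytidine acetyltransferase, fell by 1.85 on the log2 scale and FBL, the methyltransferase fibrillarin, fell by 1.88. HNRNPA2B1 and HNRNPH3, which bind pre-mRNA, had log2 fold changes of -1.80 and -1.72. The protocadherin PCDH7 had -2.12 and ARHGAP18, a GTPase-activating protein, -2.21. In WT cells the same 7 genes had log2 fold changes between -2.37 and -1.29, and each missed the threshold in the interaction (smallest adjusted p 0.224 in the edgeR test, for FBL).

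Of 34 ATF4 targets, genes of amino acid supply under stress, 12 were lower, against 6.68% of all tested genes, and the median was -0.96. DDIT4, an inhibitor of mTORC1, was at 323, 380 and 163 CPM at day 0 and at 28.4, 33.6 and 32.6 CPM at day 4 (log2 fold change -3.20). EPRS1, a tRNA synthetase, had -1.44. In DNMT1-AID cells the count was 6 without day 0 replicate 2 and 18 without day 0 replicate 3. In WT cells 24 of 36 were lower, against 6.53% of all tested genes. Of 36 hypoxia and glycolysis genes 7 were lower (median -0.39), among them hexokinase HK2 (-1.92), GPI (-1.23) and PDK1 (-1.28). In WT cells 8 of 35 were lower.

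Mitochondrially encoded genes were higher in 6 of 13 cases, against 8.62% of all tested genes, with a median of 1.20 on the log2 scale. MT-CO2, a subunit of cytochrome c oxidase, was at 2641, 2290 and 3595 CPM at day 0 and at 6980, 6939 and 6389 CPM at day 4 (log2 fold change 1.25). MT-ATP8 was at 10.3, 8.94 and 22.4 CPM at day 0 and at 96.1, 94.3 and 86.4 CPM at day 4. Day 0 replicate 3 was the highest of its group in both. The number called was 12 without day 0 replicate 3 and 3 without day 0 replicate 1. WT cells had 2 of 13 higher, against 5.37% of all tested genes (median 0.58), and UHRF1-AID cells, whose days share an alignment folder, had 0 higher and 1 lower in edgeR's test, with 2 and 5 at an unadjusted p under 0.05 (median -0.41).

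Aryl hydrocarbon receptor targets were split, with 4 of 14 higher and 2 lower, against 8.62% and 6.68% of all tested genes. TIPARP, a poly(ADP-ribose) polymerase, was at 57.8, 61.7 and 45.3 CPM at day 0 and at 208, 218 and 217 CPM at day 4 (log2 fold change 1.96, against 2.09 in WT). CYP1B1, a monooxygenase of xenobiotic metabolism, had 2.85 and 1.70, and AHRR, the repressor of the receptor, had 2.74 and 1.85. GCLM, of glutathione synthesis, was lower, at -1.27. The lower count was 1 without day 0 replicate 1 or 3 and without day 4 replicate 1 or 3.

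Smaller numbers were called in the other lists, to be read against 8.62% higher and 6.68% lower of all tested genes. Of 18 tested genes often methylated in colorectal cancer 4 were higher: UCHL1, the small GTPase gene RAB34 (log2 fold change 4.34), the cytokine signalling suppressor SOCS1 (1.73) and IGF2 (3.81). The remodeler gene HLTF was lower (-1.10), and 3 genes were lower without day 0 replicate 1. RAB34 was at 0.207, 0.251 and 0.241 CPM at day 0 and at 2.62, 6.7 and 5.36 CPM at day 4, and in WT cells it did not exceed 0.307 CPM in any library. Of 15 imprinted genes 3 were higher: IGF2, DIRAS3 (1.58) and SLC22A18 (1.08, and 0.99 without day 0 replicate 3 and 0.91 without day 4 replicate 2). DIRAS3 and SLC22A18 had 1.51 and 0.99 in WT cells. IGF2 had 0, 0 and 8 counts at day 0. Its change was between 3.25 and 8.10 when a library was left out, and -1.11 in UHRF1-AID cells, where it was not called. The edgeR interaction term called 0 of the 15 imprinted genes. Of 4 tested metallothionein genes edgeR called 0, and 1 was higher without the minimum fold. Of 20 unfolded protein response genes listed and 19 tested only DNAJB9, an endoplasmic reticulum chaperone gene, was higher (1.43).

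The called shares of the p53 and lipid synthesis lists were near those of all tested genes (8.62% higher and 6.68% lower). Of 31 tested p53 targets 2 were higher and 3 lower. The damage-recognition gene DDB2 fell by 2.13 on the log2 scale and SERTAD1 had a log2 fold change of 1.32. GADD45A was at -1.12, and at -0.98 without day 0 replicate 2. DDB2, SERTAD1 and GADD45A had -1.27, 1.15 and -1.19 in WT cells. The edgeR interaction term called 0 of the 31 p53 targets. In the list of cholesterol and fatty acid synthesis 2 of 36 were higher and 2 lower. The sterol reductase TM7SF2 (1.34) and the transcription factor SREBF1 (1.34) were the higher genes, and the desaturase FADS1 (-1.09) was among the lower. SREBF1 had a log2 fold change of 0.25 in WT cells, and the difference of 1.09 (standard error 0.34) was not called.

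Among EGFR ligands and genes of ERK output 5 of 27 were higher and 4 lower, against 8.62% and 6.68% of all tested genes. The ligand BTC (1.41), the ERK inhibitor SPRED3 (2.99) and EPHA4 (1.38) were higher and the transcription factor ETV1 (-1.71) was lower. Their log2 fold changes in WT cells were 1.03, 1.19, 0.99 and -1.69. The edgeR interaction term called 0 of the 27 genes. WNT genes were called in both directions, 3 of 11 higher and 2 lower. NOTUM, a secreted WNT deacylase, was at 12.9, 12.7 and 14.1 CPM at day 0 and at 55, 22.7 and 44.7 CPM at day 4 (1.62). SP5 was called (1.61) with an adjusted p of 0.016 by edgeR's quasi-likelihood test, which rose to between 0.0627 and 0.0679 without day 0 replicate 1 or day 4 replicate 1 or 3. RNF43, a negative regulator of WNT receptors, had -1.14, and lost its call without day 0 replicate 3 or day 4 replicate 2 or 3. NOTUM, SP5 and RNF43 had 0.49, 1.59 and -1.21 in WT cells, and the interaction term called 0 of the 11 genes. The higher WNT count was 7 without day 0 replicate 3, and the lower one was 1 or 0 in each fit that left out a library.

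Of 40 cytosolic ribosomal protein genes 2 were lower, RPL3 (-1.11) and RPL4 (-1.04), a share near the 6.68% of all tested genes. The median was -0.20. RPL4 was at -0.99 without day 0 replicate 2 and at -0.96 without day 4 replicate 1. Of the 6 tested epithelial markers edgeR called 0, and 3 were higher without the minimum fold. The only tested fibroblast marker, COL1A1, was at 1.29, 1.31 and 4.92 CPM at day 0 and at 11.6, 13.6 and 9.19 CPM at day 4 (log2 fold change 2.18, adjusted p = 0.0151 by edgeR's quasi-likelihood test, and 0.0526 without day 4 replicate 2), while COL1A2 had no count in these libraries.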

How the data were processed

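The authors made libraries with a NEBNext Ultra kit and trimmed the paired reads. Alignment was by STAR on hg38, and counting by featureCounts. The deposited values are raw counts per Ensembl gene (58735 genes and 92 ERCC spike-ins per table). Whether counting used strand is not given in the sources used here, so overlapping and antisense genes are uncertain. Symbols matched 58207 genes. Spike-ins were left out of totals and tests.

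From these counts, edgeR 4.0.16 (R 4.3.3) with filterByExpr, TMM scaling and the robust quasi-likelihood test was fitted within the libraries compared, with Benjamini-Hochberg adjustment over all genes tested. Calls needed both an adjusted p below 0.05 and a log2 change beyond 1 in size. Standard errors come from the fit. CPM were scaled by TMM over 24 libraries. The floor was 3 counts over the group, and intervals are exact at 95%. Replicate numbers did not pair the days in DNMT1-AID cells (correlations of deviations -0.115, -0.21 and -0.115). In UHRF1-AID cells they did (0.325, 0.178 and 0.175). All fits are without a block, and the blocked ones are alternatives. No 2 replicates agreed within sampling noise (chi-square per degree of freedom 10.9 to 64.3).

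The members and the 22 gene lists were chosen with earlier results of these data known. Genes were named by rule: tested methylation machinery genes, the 10 smallest p per direction without overlap, up to 4 called members per list, the 5 smallest p per direction of the interaction also called within DNMT1-AID cells, and the 6 highest at day 4 among genes with at most 3 counts per day 0 library. Other genes were named as examples of their list after their values were seen. Some genes that the rule names are not reported here. Promoters are RefSeq GRCh38.p14, the first listed window per symbol. In simulated counts for this comparison, 96.5% of 200 changed genes were recovered among 13638, with 11 false calls. These genes were changed by 2 on the log2 scale, and genes at low counts were not among them. The simulated libraries held no trend with exon length or GC content. The recovered share therefore does not apply to smaller changes or to genes at low counts.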

Additional observations from a re-analysis of the deposited data

Results flagged for a closer look

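Day effects differed between DNMT1-AID and WT cells in 19 genes that were higher and 1 gene that was lower in the interaction term. Among the genes named by rule these were TNFRSF1B (difference of log2 fold changes 5.93), IFITM1 (3.35), PSMB8 (3.26), BATF2 (1.85), IFI6 (1.73), OASL (1.71), IRF7 (1.46) and FBXO27 (-1.15). TNFRSF1B, IFITM1, PSMB8, BATF2, IFI6, OASL and IRF7 were higher and FBXO27 was lower in DNMT1-AID cells at day 4 than in WT. Day and alignment folder cannot be told apart in either line.

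ERCC spike-in sequences, which no comparison used, took 1.41%, 1.35% and 1.34% of the counts in the DNMT1-AID day 4 replicates 1, 2 and 3 and 0 in the day 0 libraries.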

How the results depend on the processing

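Of the 91 called genes named by rule and reported here, 73 kept direction and call in all 18 alternatives, and the 4 values that turned sign belonged to uncalled genes: DNMT3A (-0.07 with day 0 represented by replicate 3 alone), TET3 (-0.63 so, and between -0.01 and 1.40 without a library) and ZBTB38 (0.03 with a GC content offset). In DNMT1-AID cells the counts of higher and lower genes were 2704 and 2886 with no minimum fold change. They lay between 1081 and 1682 and between 796 and 938 when a library was left out. With the replicate number as a block they were 1225 and 886 (UHRF1-AID 1730 and 1474), and with the GC content offset 1115 and 896, sharing 84.1% and 81.8% of the calls. Cancer/testis calls were 0 when every library had to hold 10 counts, by construction, 26 with no filter and 33 with all 24 libraries in 1 fit. WT calls were 2414 and 2427 with no minimum fold change, 578 lower at an adjusted p under 0.01, and between 644 and 850 and between 654 and 1268 without a library. UHRF1-AID calls were 3813 and 3301 with no minimum fold change, 1105 higher with 10 counts in every library, and between 1692 and 1861 and between 1310 and 1617 without a library.

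The interaction was the least stable: 77 higher and 10 lower by DESeq2, 33 and 6 with all 24 libraries in 1 fit, 11 and 0 with 10 counts in every library, 572 and 23 with no filter, 8 and 0 with the replicate block, 2 and 0 at an adjusted p under 0.01, and between 2 and 86 and between 0 and 24 without a library. Lower calls were 0 with the GC content offset, 2 with DNMT1-AID day 0 represented by replicate 3 alone and 2 with no minimum fold change. The cause was not tested. Offsets for GC content in WT, UHRF1-AID and the interaction, scaling by library totals and the interaction with that single day 0 library were chosen after seeing the data.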
